A study of Homo sapiens with 6 samples.

Results

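Replication-dependent histone genes were taken as every gene whose symbol is H1- followed by a digit from 1 to 6, or H2AC, H2BC, H3C or H4C followed by a number. The rule found 59 of the 17318 genes listed, namely 5 H1, 14 H2A, 15 H2B, 13 H3 and 12 H4 genes. They were measured in SNU216, an established human gastric cancer cell line grown as a culture. One group of 3 libraries came from cells given the control siRNA siControl, and the other group of 3 from cells given siOXTR, an siRNA against the oxytocin receptor gene; both transfections lasted 48 h. All 6 libraries thus came from 1 cell line, and both groups had been through a transfection. The labels number the libraries within a group but do not tell separate cultures from repeat preparations, so every p-value refers to the spread among these libraries, which may be technical.

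Histones package DNA. A nucleosome wraps DNA around a core built of H2A, H2B, H3 and H4, and H1, the linker histone, binds where DNA enters and leaves it. The replication-dependent genes supply histones while DNA is copied in S phase; they lie in clusters of small genes, mostly without introns. Their mRNAs end in a conserved stem-loop bound by SLBP in place of a poly(A) tail, although several of these genes also give polyadenylated transcripts that run past the stem-loop. Other histone genes, such as H3-3A, H3-3B and H2AZ1, are expressed outside S phase and give polyadenylated mRNA. The labels name the BGISEQ-500 library protocol but not how RNA was selected, so the part that tail selection plays in the levels below was not tested.

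All 59 genes were matched to GENCODE release 29 (GRCh38) by their Entrez numbers, 49 on chromosome 6 and 10 on chromosome 1, and 47 had transcripts of 1 exon only. The stem-loop motif was searched for on the sense strand of the annotated transcripts, many of which stop at the end of the coding sequence. It was found in transcripts of 26 members, and in 50 of 19702 protein-coding genes overall (0.254%). It took 6 forms, shown here because they are the mark of this gene class; capitals give the 16 bases of the motif and lower case the 5 bases on each side, as DNA letters.
H2AC6: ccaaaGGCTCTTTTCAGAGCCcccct
H2BC5: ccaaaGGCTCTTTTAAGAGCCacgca
H4C8: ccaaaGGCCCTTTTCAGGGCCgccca
H4C15: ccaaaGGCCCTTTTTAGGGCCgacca
H3C6: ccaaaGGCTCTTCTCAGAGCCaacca
H2AC11: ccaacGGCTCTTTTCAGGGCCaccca
The form in H2AC6 was shared by 14 members, all of them H2A, H2B or H3 genes, and the form in H2BC5 by 4. The 2 forms shown for H4C8 and H4C15 were each found in 3 members, all H4 genes, and those of H3C6 and H2AC11 in 1 member each.

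RefSeq promoters (250 bases before to 50 after the start, GRCh38.p14) were on hand for 54 members. Searched on both strands, CCAAT was present in every H1, H2A, H2B and H3 promoter (5, 13, 15 and 11) and in 2 of 10 H4 promoters, against 34.6% of 35116 promoters of all genes. ATTTGCAT, the octamer known from H2B promoters, was present in 12 of 15 H2B and 10 of 13 H2A promoters, in 1 of 11 H3 promoters and in no H1 or H4 promoter, against 1.8% of all promoters. TATAAA was present in 11.5% of all promoters, in 10 of 13 H2A, 11 of 15 H2B, 8 of 11 H3 and 5 of 10 H4 promoters, and in 2 of 5 H1 promoters. Where a member had several listed starts, only the first was counted. The 1 H3 promoter with the octamer was such a case, H3C4 at chr6:26199244-26199543, the same stretch as the H2AC7 promoter. The other listed promoter of H3C4, chr6:26197237-26197536, held TATAAA and no octamer. The promoters of the most abundant member of 4 types follow, with these motifs in capitals on either strand (motifs may overlap). No promoter of H4C15 is shown because none of the 3 motifs lay in it.
H1-2, chr6:26056421-26056720, minus strand: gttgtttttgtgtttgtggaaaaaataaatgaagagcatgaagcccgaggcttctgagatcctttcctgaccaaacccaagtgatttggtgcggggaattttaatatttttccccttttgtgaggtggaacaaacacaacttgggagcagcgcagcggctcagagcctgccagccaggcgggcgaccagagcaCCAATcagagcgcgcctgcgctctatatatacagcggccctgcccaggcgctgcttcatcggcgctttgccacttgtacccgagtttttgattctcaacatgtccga
H2AC6, chr6:26123922-26124221, plus strand: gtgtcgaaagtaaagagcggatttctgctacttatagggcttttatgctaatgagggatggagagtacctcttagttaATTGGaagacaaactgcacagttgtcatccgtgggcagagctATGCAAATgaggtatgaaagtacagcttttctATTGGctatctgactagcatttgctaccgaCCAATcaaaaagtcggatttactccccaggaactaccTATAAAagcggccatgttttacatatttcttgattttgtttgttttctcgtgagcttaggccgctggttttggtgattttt
H2BC12, chr6:27146806-27147105, minus strand: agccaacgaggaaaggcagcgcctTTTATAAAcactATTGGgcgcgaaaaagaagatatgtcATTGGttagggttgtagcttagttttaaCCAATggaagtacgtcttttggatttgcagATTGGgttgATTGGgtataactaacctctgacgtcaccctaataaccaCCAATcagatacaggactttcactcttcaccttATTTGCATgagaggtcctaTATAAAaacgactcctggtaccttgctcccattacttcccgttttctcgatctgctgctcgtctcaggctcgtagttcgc
H3C10, chr6:27809801-27810100, plus strand: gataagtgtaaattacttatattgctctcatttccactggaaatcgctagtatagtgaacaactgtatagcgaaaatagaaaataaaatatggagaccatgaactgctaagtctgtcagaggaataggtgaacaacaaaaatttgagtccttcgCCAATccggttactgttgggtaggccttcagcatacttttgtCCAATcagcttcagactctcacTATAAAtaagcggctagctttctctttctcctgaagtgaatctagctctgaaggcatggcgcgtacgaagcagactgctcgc

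The libraries were checked before the comparison. OXTR was at 38.87 to 39.37 FPKM (fragments scaled for gene length and library size) in siControl and at 4.65 to 5.34 FPKM in siOXTR, so the targeted gene followed the labels (log2 fold change -2.76, SE 0.061, adjusted p = 6.39e-11, limma). All 8 epithelial markers were above 1 FPKM on average; 1 rose and 5 fell, and their sum was 7907 to 9071 FPKM in siControl and 8550 to 8690 FPKM in siOXTR. The 5 fibroblast markers in the files summed to 1.62 to 2.02 FPKM in siControl and 0.61 to 0.81 FPKM in siOXTR, and the 6 blood and endothelial markers to 1.27 to 1.93 and 1.38 to 2.06 FPKM. None of these markers was at 0 in all libraries, and their part in the histone values was not tested. Sequencing depth cannot be read from values already scaled for it; the smallest value above 0 among the histone genes was 0.08 to 0.12 FPKM in each library, so a gene below 0.5 FPKM stood only a few such steps above 0.

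Histone RNA was higher in siOXTR in each of the 5 types. Summed over the 59 genes it came to 184.3, 199.95 and 203.59 FPKM in the siControl libraries and to 342.34, 354.11 and 362.81 FPKM in the siOXTR libraries. The means were 196 ± 10.2 and 353 ± 10.3 FPKM (SD, n = 3 each), a ratio of 1.80. All siOXTR libraries thus lay above all siControl libraries. In bulk RNA, a larger share of cells with histone RNA and more histone RNA in each such cell cannot be told apart. The cause of the rise was not tested.

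Copies of 1 type are nearly identical in places and share reads, so sums by type were compared first. H2B was the most abundant type and went from 93.9 ± 5.54 to 172 ± 8.58 FPKM, a ratio of 1.83. H2A went from 37.4 ± 1.17 to 65.8 ± 4.58 FPKM (ratio 1.76), and H1 from 40.2 ± 3.97 to 64.1 ± 3.52 FPKM (ratio 1.59). H4 went from 18.1 ± 2.00 to 37.3 ± 1.86 FPKM (ratio 2.07), and H3, the least abundant, from 6.37 ± 1.24 to 13.7 ± 0.724 FPKM (ratio 2.16). On the log2 scale the differences were 0.67 (SE 0.093) for H1, 0.81 (SE 0.063) for H2A, 0.88 (SE 0.065) for H2B, 1.13 (SE 0.17) for H3 and 1.05 (SE 0.10) for H4. In no type did the groups overlap, and a two-sided exact permutation test gave p = 0.1 for each type, the smallest value that 3 libraries against 3 allow.

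**Figure D1:**
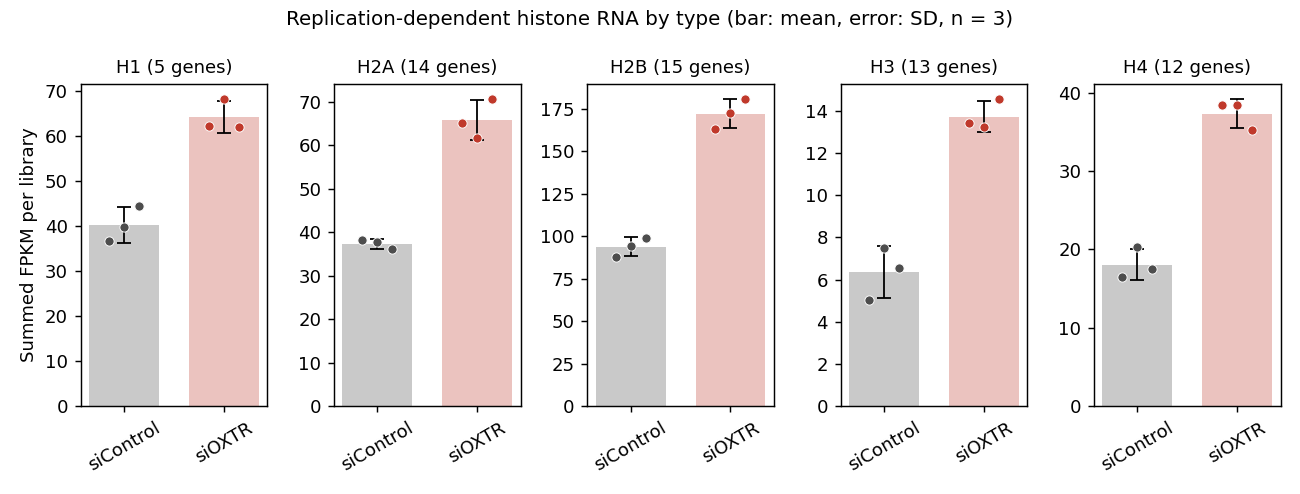
Summed FPKM of the replication-dependent genes of each histone type (one panel per type, each with its own scale), with 1 point per library, bars at the group mean and error bars of 1 SD (n = 3). In every panel the 3 siOXTR points lie above the 3 siControl points, from 1.59 times the siControl mean for H1 to 2.16 times for H3.

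The share of each type in the histone RNA was compared next. H1 genes gave 19.8% to 21.8% of the summed histone FPKM in siControl and 17.1% to 19.2% in siOXTR, without overlap. The share of H2B was 47.3% to 48.7% and 47.7% to 49.7%, and that of H4 8.59% to 10.2% and 9.70% to 11.2%, so these overlapped. H2A (17.7% to 20.8% and 17.4% to 19.5%) and H3 (2.74% to 3.76% and 3.74% to 4.01%) overlapped as well. Differences between types in how far they rose were not tested, since 3 libraries against 3 cannot give an exact p below 0.1.

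Most of the signal came from few genes. H2BC12 and H1-2 together held 48.0% of the summed histone FPKM, and the 6 highest members 73.7%. A mean of 1 FPKM or more was reached by 24 members, which entered the fit across all genes and held 96.1% of the sum, while 35 stayed below it. The mean nearest the limit was 1.32 FPKM inside (H2AC15) and 0.998 FPKM outside (H1-3). Of the 24, 3 passed only through their siOXTR values, with siControl means below 1 FPKM (H2AC15, H3C8 and H4C5).

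Of the 24 tested members 23 rose and none fell (limma on log2(FPKM + 1), Benjamini-Hochberg adjusted p under 0.05), whereas 42.2% of all tested genes were called higher and 17.6% lower, 59.8% in all. By type these were 1 of 1 H1, 5 of 5 H2A, 9 of 9 H2B, 4 of 4 H3 and 4 of 5 H4 genes. The exception, H4C12, had a positive fold change too, and 0 members were lower at an unadjusted p under 0.05 in limma, as deposited or after TMM scaling. The groups did not overlap in 22 of the 24, against 45.2% of all tested genes that were higher without overlap. The median log2 fold change of the 24 was 0.78 and that of all 11550 tested genes 0.13. Among the 21 whose siControl mean was at least 1 FPKM, 20 rose. A rise of at least 0.5 on the log2 scale was called in 19 of the 24 members and in 2.76% of all tested genes. These 19, the 22 without overlap and the median of 0.78 include H2AC15, H3C8 and H4C5, which passed the filter only through their siOXTR values. After the libraries were rescaled by a trimmed mean (TMM), which moved the median of all genes by -0.115, 21 of the 24 were higher, against 19.3% of all tested genes.

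When all genes with any signal were tested, 25 of the 59 histone genes were higher and none lower by limma (H3C11, at 0.12 FPKM or less in every library, was lower at an unadjusted p under 0.05), against 26.7% of all such genes called higher. The median over the 59 was then 0.31 and over all genes 0.051. The 3 members under the limit that were called in this fit were H2AC14, H3C15 and H4C9.

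**Figure D2:**
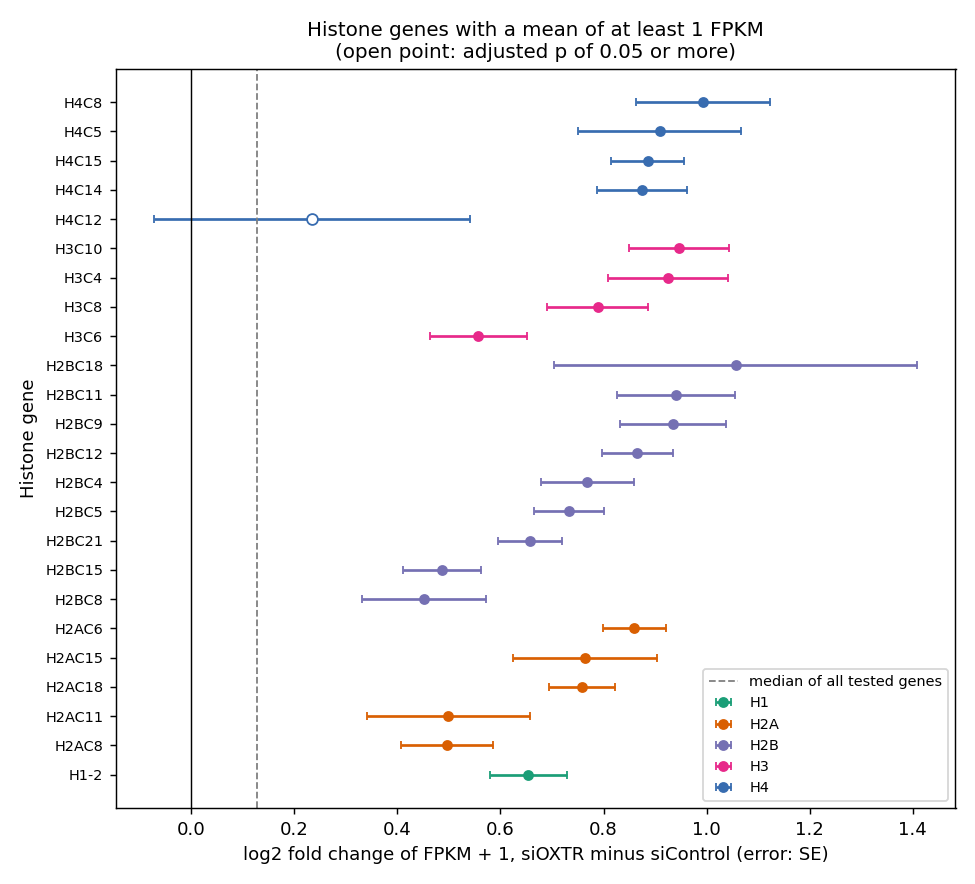
Log2 fold change of FPKM + 1 (siOXTR minus siControl, x axis) with its SE for the 24 tested histone genes, coloured by type; the dashed line is the median of all tested genes (0.13) and an open point marks an adjusted p of 0.05 or more. All points lie to the right of that line, from 0.23 for H4C12 to 1.06 for H2BC18, and H4C12 and H2BC18 have the widest error bars.

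Among H1 genes, H1-2 (642 bases on chromosome 6, 26055787 to 26056428) gave 96.6% of the type's sum. H1-2 encodes a somatic linker histone. Its siControl libraries were at 35.13, 38.35 and 43.42 FPKM and its siOXTR libraries at 59.12, 66.18 and 59.96 FPKM. It rose 1.58-fold (log2 fold change 0.65, SE 0.074, adjusted p = 1.60e-05, limma), with no overlap. H1-3 was at 0.97, 0.65 and 0.57 FPKM in siControl and 1.75, 0.73 and 1.32 FPKM in siOXTR, and these overlap. H1-4, H1-5 and H1-6, the last of them the testis-specific linker histone, stayed at or below 0.72 FPKM in every library. The other 4 H1 genes summed without H1-2 had a ratio of 1.83.

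Among H2A genes, H2AC6 and H2AC18 were the most abundant. H2AC6 (chromosome 6, 26124145 to 26139116) was at 16.85, 15.06 and 16 FPKM in siControl and at 29.74, 28.33 and 31.29 FPKM in siOXTR. That is a rise of 1.87-fold (log2 fold change 0.86, SE 0.061, adjusted p = 2.08e-07, limma). H2AC18 (chromosome 1, 149842188 to 149842736) was at 15.19, 14.91 and 13.79 FPKM and then at 25.64, 23.65 and 27.11 FPKM, a rise of 1.74-fold (log2 fold change 0.76). All of the coding sequence of H2AC18 recurs in another annotated gene, so its single value may include reads of that copy. H2AC15 was low in both groups, at 0.42, 0.72 and 1.03 FPKM and at 1.87, 1.46 and 2.44 FPKM, and rose by 0.76 on the log2 scale. H2AC8 and H2AC11 rose by 0.50 each; the groups overlapped for H2AC11, whose adjusted p of 0.0201 (limma) rose to between 0.0517 and 0.0735 without the filter, after TMM scaling, without siOXTR replicate 2 or without siOXTR replicate 3. The remaining 9 H2A genes had means of 0.675 FPKM or less, and H2AC20 and H2AC7 were among them.

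H2B genes held the largest member and the most tested ones. H2BC12 (chromosome 6, 27146418 to 27146798) was at 52.66, 56.27 and 63.50 FPKM in siControl and at 99.84, 105.89 and 110.32 FPKM in siOXTR. It rose 1.83-fold (log2 fold change 0.87, SE 0.069, adjusted p = 6.34e-07, limma), and every siOXTR library was above every siControl library. Without it the H2B sum had a ratio of 1.84. H2BC5 was at 10.31, 12.12 and 11.04 FPKM and then at 19.28, 20.23 and 18.06 FPKM, a rise of 1.72-fold. H2BC11 rose from 4.73 ± 0.729 to 10.0 ± 1.68 FPKM, with siControl libraries at 5.56, 4.41 and 4.21 FPKM and siOXTR libraries at 8.16, 10.50 and 11.42 FPKM. H2BC18 had the largest log2 fold change of FPKM + 1 among the 24 tested members (1.06, SE 0.35), and among the 23 called members the highest adjusted p, 0.0497 (limma). Its ratio of mean FPKM, 2.45, was below the 3.26 of H4C5, and with a pseudocount of 0.1 its log2 fold change of 1.47 was below the 1.61 of H4C5. Its siControl libraries were at 2.32, 2.88 and 0.64 FPKM and its siOXTR libraries at 4.21, 5.57 and 4.55 FPKM. The call was lost under 6 of 10 alternatives, with adjusted p = 0.122, 0.161 and 0.138 (limma) without siOXTR replicate 1, 2 and 3, while without siControl replicate 3 it was 0.000400. H2BC9, H2BC4, H2BC21, H2BC15 and H2BC8 rose by 0.93, 0.77, 0.66, 0.49 and 0.45 on the log2 scale. H2BC1, the testis H2B gene, was at 0 in 5 libraries and at 0.11 FPKM in the other.

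H3 genes were low throughout. H3C10 (chromosome 6, 27810064 to 27811300) was at 1.20, 1.92 and 1.5 FPKM in siControl and at 3.88, 3.97 and 3.74 FPKM in siOXTR, a rise of 2.51-fold (log2 fold change 0.95, SE 0.097, adjusted p = 6.17e-06, limma). H3C4 was at 0.68, 1.27 and 1.38 FPKM and then at 2.97, 2.82 and 3.10 FPKM, a rise of 2.67-fold. All of its coding sequence recurs in a transcript of another annotated gene, so its value may include reads assigned to both. Whether that gene is a separate copy or overlaps H3C4 was not examined. The groups did not overlap for H3C10 or for H3C4. H3C8 and H3C6 rose by 0.79 and 0.56 on the log2 scale, a scale on which genes this low change less than in FPKM. H3C14 and H3C15, whose coding sequences are fully shared, were at 0 in 5 libraries and in 2 libraries respectively; their sum was 0, 1.13 and 0.36 FPKM in siControl and 0.7, 0.43 and 1.19 FPKM in siOXTR.

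Among H4 genes, the copies H4C14 and H4C15 on chromosome 1 led. H4C15 (149854045 to 149861210) was at 7.86, 9.49 and 8.19 FPKM in siControl and at 16.89, 16.89 and 15.85 FPKM in siOXTR. It rose 1.94-fold (0.89 on the log2 scale, SE 0.071, limma adjusted p = 6.63e-07). H4C14 was at 4.69, 6.28 and 5.17 FPKM and then at 10.85, 11.21 and 9.90 FPKM. The coding sequence of each recurs in full in another gene, and the sum of the pair went from 13.9 ± 1.67 to 27.2 ± 1.27 FPKM, a ratio of 1.96. H4C8 was at 1.19, 1.02 and 1.59 FPKM and at 4.56, 2.93 and 3.13 FPKM, and rose by 0.99 on the log2 scale. H4C5 was at 0.47, 0.43 and 1.01 FPKM and at 1.91, 2.77 and 1.55 FPKM, and rose by 0.91. H4C12 was at 1.45, 2.02 and 0.91 FPKM in siControl and at 2.14, 0.88 and 2.90 FPKM in siOXTR, which overlap (log2 fold change 0.23, SE 0.31, adjusted p = 0.539, limma). H4C11, with a coding sequence that is also fully shared, was at 0 in every library except siOXTR replicate 2, where it was at 2.20 FPKM and H4C12 was at its lowest. Summed, H4C11 and H4C12 were at 1.45, 2.02 and 0.91 FPKM in siControl and at 2.14, 3.08 and 2.90 FPKM in siOXTR, without overlap.

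Shared sequence was measured as the share of 50-base words of the longest open reading frame that recur in a transcript of another GENCODE gene. It exceeded 50% in 16 members and was 0 in 27. The 27 genes with no shared word summed to between 49.1 and 60.9 FPKM in siControl and to between 94.0 and 96.7 FPKM in siOXTR, a ratio of 1.72. The 16 with over 50% summed to between 92.9 and 100.8 FPKM and to between 174.6 and 187.3 FPKM, a ratio of 1.84. Both sums thus stood higher in siOXTR. Each was mostly 1 gene, H1-2 at a mean of 50.4 FPKM in the former and H2BC12 at 81.4 FPKM in the latter. Because the files do not say whether strand was used in counting, reads of genes that overlap on opposite strands, such as H2BC12 and H4C9 in RefSeq, cannot be told apart.

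Members with a long annotated gene were the more abundant ones. In 25 members the span of the gene in GENCODE or RefSeq exceeded 1000 bases, which leaves room for a transcript past the stem-loop, and in 34 it did not. The class with long spans had a median level of 2.28 FPKM and held 69.4% of the summed histone FPKM. H2BC12 and H3C4 belong to it only by their RefSeq spans of 8566 and 2510 bases. The class with shorter spans had a median of 0.254 FPKM. In it, 5 of 34 genes reached a mean of 1 FPKM, H1-2, H2AC18, H2AC8, H2AC15 and H4C12. Both classes were higher in siOXTR, with ratios of summed FPKM of 1.89 and 1.61. The 10 members on chromosome 1 and the 49 on chromosome 6 had ratios of 1.83 and 1.80. The transcript length by which each FPKM value was divided is not given in the sources used here, and its part in these levels was not tested.

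**Figure D3:**
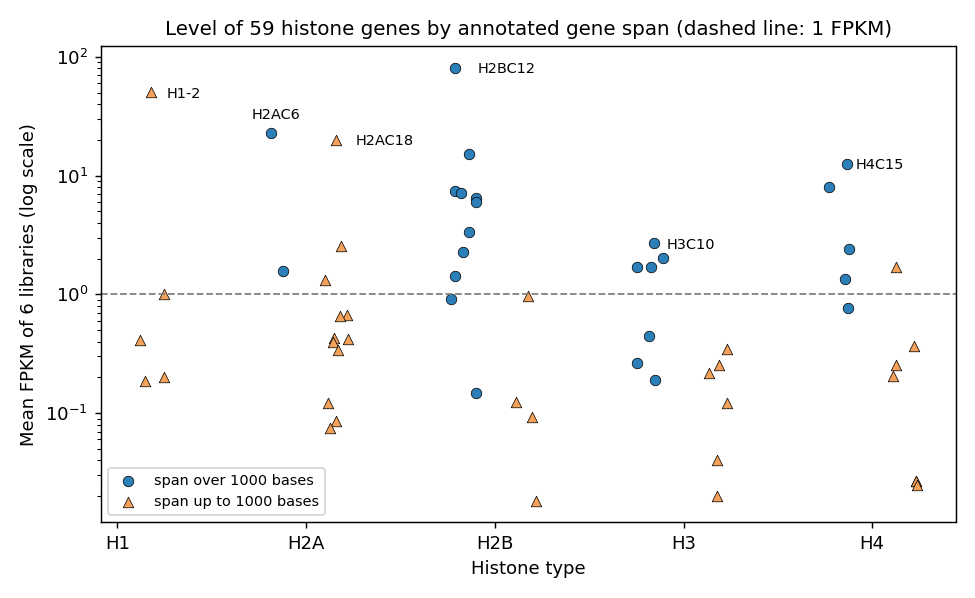
Mean FPKM of 6 libraries (log scale) for each of the 59 histone genes by type; circles are genes with an annotated span over 1000 bases, triangles shorter ones, and the dashed line marks 1 FPKM. Most circles (19 of 25) lie above the line and most triangles below it, with H1-2 and H2AC18 as the highest triangles.

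Many H2A and H2B genes are paired head to head and share the stretch between their starts. In 10 pairs of members, taken from the RefSeq starts, the starts were at most 500 bases apart, and the actual distances were 194 to 248 bases. One of the 10, H3C4 with H2BC7, repeats the pair of H2AC7 and H2BC7 at 223 bases, since H3C4 has a listed start shared with H2AC7. Both genes were tested in 4 pairs, and both were called higher in each of them, where 42.2% of all tested genes were. All 5 tested H2A and all 9 tested H2B genes were called higher, so this outcome followed from those counts. It cannot show whether paired genes move together. For H2AC11 the call was lost under 4 alternatives, as given above, and H2AC15 passed the filter only through its siOXTR values. H2BC4 and H2AC6 rose by 0.77 and 0.86 on the log2 scale, H2BC8 and H2AC8 by 0.45 and 0.50, H2BC11 and H2AC11 by 0.94 and 0.50, and H2BC15 and H2AC15 by 0.49 and 0.76. The promoter of H2AC6 printed above takes in the 246 bases between its start and that of H2BC4. Levels within a pair could differ widely, as for H2BC21 at a mean of 7.17 FPKM and H2AC20 at 0.675 FPKM.

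Histone genes that are not tied to replication had smaller fold changes at the median, a difference that was not tested. In the list of replication-independent variants 7 of 10 tested genes rose and none fell, where 42.2% of all tested genes were higher and 17.6% lower. The median log2 fold change of the list was 0.26. After TMM scaling 3 of its genes were higher and 1 lower, against 19.3% and 24.5% of all tested genes. Without scaling, no variant was lower at an unadjusted p under 0.05 either (limma). H3-3B rose from 222 ± 22.1 to 289 ± 5.30 FPKM and H2AZ1 from 452 ± 32.5 to 572 ± 34.03 FPKM. H3-3A and H2AJ rose by 0.29 and 0.27 on the log2 scale and did not pass after TMM scaling. Replication-dependent genes gave 0.895% to 1.31% of the H3 FPKM in siControl and 1.66% to 1.99% in siOXTR, when H3-3A, H3-3B, H3-5 and CENPA are counted as the remainder.

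The genes that make histone mRNA moved in both directions. NPAT, the activator of histone gene transcription in S phase, was at 15.1, 14.22 and 14.46 FPKM in siControl and at 12.42, 12.79 and 12.54 FPKM in siOXTR, and fell (log2 fold change -0.20, SE 0.056, adjusted p = 0.00871, limma). SLBP was at 133.29, 134.78 and 139.69 FPKM and at 127.8, 128.2 and 128.7 FPKM and did not pass (log2 fold change -0.083, adjusted p = 0.156), though after TMM scaling it was called lower (-0.21, adjusted p = 0.00452, limma). Of the 24 tested processing and transcription factors 9 rose and 1 fell, with a median of 0.13, the same as that of all genes. Over all tested genes 42.2% were higher and 17.6% lower. After TMM scaling 4 of the 24 factors were higher and 5 lower, against 19.3% and 24.5% of all tested genes. COIL, which encodes coilin of Cajal bodies, rose by 0.37. LSM10, a subunit of the U7 particle that cuts histone pre-mRNA, rose by 0.34 on the log2 scale. LSM1, of the decay machinery, and CSTF2 rose by 0.33 each. LSM1 did not pass after TMM scaling.

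Among 22 histone chaperones 3 rose and 3 fell (median 0.048), and 1 was higher and 6 lower after TMM scaling. ASF1A, a chaperone of H3 and H4, rose by 0.38. SSRP1, a subunit of the FACT complex, fell by 0.23 and CHAF1A, the large subunit of the replication-coupled assembly factor, by 0.20. SPTY2D1 rose by 0.19 without scaling but did not pass after TMM scaling. Of 15 genes of the polyadenylation machinery 8 rose and 1 fell (median 0.15), with 4 higher and 1 lower after TMM scaling. Over all tested genes 42.2% were higher and 17.6% lower, with a median of 0.13. After TMM scaling 19.3% were higher and 24.5% lower. The polyadenylation list lay near the shares called higher, while its share called lower was smaller, 1 of 15 with or without scaling. Among the chaperones the share called higher was smaller, 3 of 22, and 1 of 22 after TMM scaling. Their share called lower, 3 of 22 and then 6 of 22, lay near that of all tested genes. These differences were not tested. CPSF4, CSTF3, PCF11 and CPSF6 rose by 0.40, 0.36, 0.35 and 0.32.

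Genes of DNA replication moved in both directions. Of 40 tested genes 6 rose and 11 fell, with a median log2 fold change of -0.069 against 0.13 for all genes. Of all tested genes 42.2% were higher and 17.6% lower, so a smaller share of this list rose. TMM scaling left 1 of the 40 higher and 21 lower, against 19.3% and 24.5% of all tested genes. RRM2, a subunit of ribonucleotide reductase, rose from 47.8 ± 2.09 to 66.2 ± 2.63 FPKM. GINS4, of the replicative helicase, fell from 27.2 ± 0.576 to 17.4 ± 0.405 FPKM, and MCM3, also of the helicase, and RFC5, of the clamp loader, had log2 fold changes of -0.49 and -0.45 and fell too. The lists differ in length and level, and the difference between them was not tested.

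**Figure D4:**
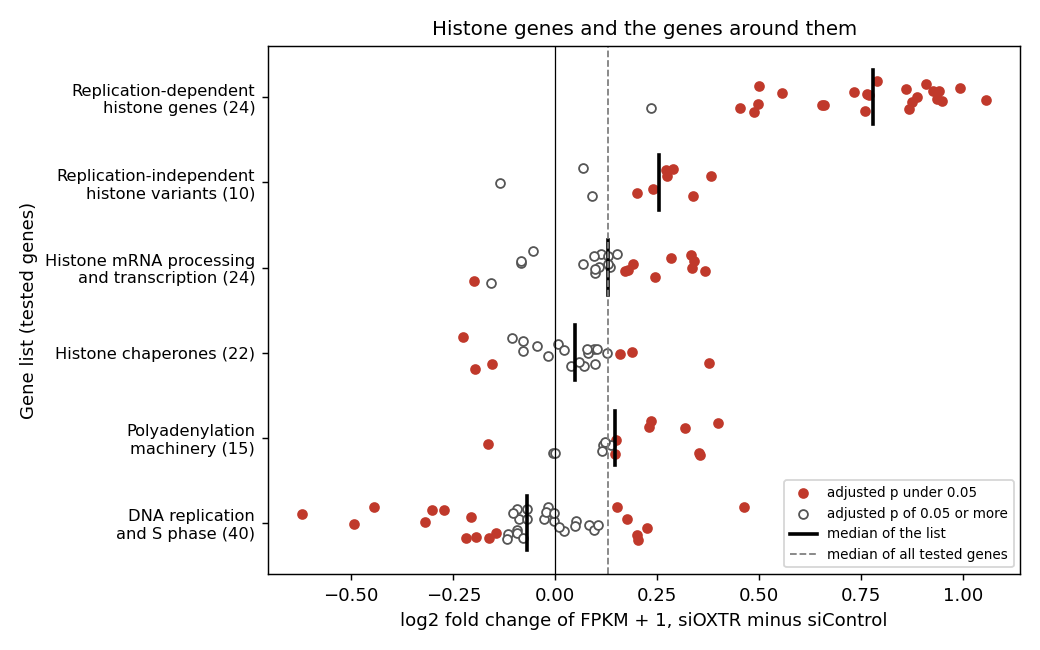
Log2 fold change of FPKM + 1 (siOXTR minus siControl) of each tested gene in 6 lists, in red where the adjusted p was under 0.05; short black lines are the medians of the lists and the dashed line that of all tested genes (0.13). The replication-dependent histone genes lie between 0.23 and 1.06, while the medians of the other lists lie between -0.069 and 0.26.

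Histone-like genes next to the rule were left out of every sum. H3-2 went from 3.11 ± 0.494 to 4.77 ± 0.50 FPKM and rose by 0.49 on the log2 scale. H4-16 averaged under 1 FPKM and its groups overlapped.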

How the data were processed

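Values were deposited by the authors as FPKM per gene for each of 6 RNA-seq libraries, rounded to 2 decimals; per the labels, 3 were siControl and 3 siOXTR. The build GRCh38.p13 is named in the submitters' processing notes; for the aligner, the counting program, the use of strand and the way RNA was selected, nothing was given in the sources used here. Genes with a mean FPKM of 1 or more entered the fit (11550 of 17318), as log2(FPKM + 1), which understates changes of low genes. Limma 3.58.1 in R 4.3.3, with trend and robust settings, compared siOXTR with siControl, and p-values were adjusted by Benjamini-Hochberg over all tested genes; a gene was called at 0.05. The fitting code was tested on simulated data. Sums by type used deposited FPKM and a two-sided exact permutation test. Libraries correlated at r = 0.995 to 0.998 within groups and 0.974 to 0.976 between them, and no pair was identical (at most 0.606% equal values). The alternatives were a pseudocount of 0.1, no filter, a filter of 5 FPKM, TMM scaling (own code, trims of 30% and 5%), a replicate block and leaving out each library. Histone genes are named per library where they were the 2 highest of a type or the 2 with the largest change, others by count or fold change; other lists name up to 4 called genes with the largest change, with SLBP and NPAT in any case. One further gene of that rule is not reported here. Members and lists were chosen with earlier results of these data known, so no list is independent evidence. Promoters came from RefSeq (GRCh38.p14), gene positions and stem-loops from GENCODE release 29.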

Additional observations from a re-analysis of the deposited data

How the results depend on the processing

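No called result changed direction. The number of histone genes called higher was 22 with a pseudocount of 0.1, 25 without a filter, 21 after TMM scaling and 11 of the 11 that passed a filter of 5 FPKM, and 21 to 23 when 1 library was left out. TMM scaling lowered the number of all genes called higher from 4869 to 2228, and the ratios of summed FPKM to 1.65 for all members, 1.61 for H2A and 1.68 for H2B; the other types moved by less than 1 SD. The ratio for H1 was 1.83 without H1-2. Leaving out 1 library in turn gave ratios of 1.75 to 1.84 for all members, 1.52 to 1.68 for H1, 1.69 to 1.82 for H2A, 1.78 to 1.89 for H2B, 1.95 to 2.37 for H3 and 1.98 to 2.20 for H4. It gave 3980 to 4671 genes called higher overall and 1820 to 2028 called lower.

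In the other lists TMM scaling gave 4 higher and 5 lower processing factors, 1 higher and 6 lower chaperones, 3 higher and 1 lower variants, 1 higher and 21 lower replication genes, and 4 higher polyadenylation genes. Without a filter 1 chaperone was higher and 1 variant lower; with a filter of 5 FPKM 0 polyadenylation genes were lower. Leaving out 1 library gave 1 to 4 chaperones higher and 2 to 4 lower, 6 to 7 variants higher and 0 to 1 lower, and 0 to 1 polyadenylation genes lower; the 1 lower variant appeared without siControl replicate 1. It gave 6 to 10 processing factors higher, 4 to 6 replication genes higher and 8 to 11 lower, and 6 to 9 polyadenylation genes higher. Among named genes 283 of 295 alternatives kept direction and call; H2AC11 lost its call in 4 and H2BC18 in 6, H4C12 was called without siOXTR replicate 2 (0.53, adjusted p = 0.0333, limma), and SLBP after TMM scaling. The cause was not tested.

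Whether replicate numbers pair the libraries cannot be settled from so few libraries. Deviations from the group means of same-numbered libraries correlated at 0.1073, 0.0042 and 0.1602. Between libraries of different groups and numbers they correlated at -0.3099 to 0.2081. With a replicate block 22 histone genes were higher, 1 variant was lower and 0 polyadenylation genes were lower, and 5100 genes were higher and 2105 lower overall. Only siControl replicate 1 correlated best with the siOXTR library of its own number. FPKM carries no read number, so low members are limited in precision to an unknown degree.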
